A study of Mus musculus with 55 samples.

Results

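The soleus (SOL) and the extensor digitorum longus (EDL) of 5-month-old mdx mice were compared across all genes. The libraries were chosen by the deposited sample sheet, which lists 7 as SOL and 6 as EDL of mdx genotype at 5 months, 13 of the 55 libraries in the series. The series measured polyadenylated RNA in 3 hindlimb muscles of wild-type (wt) and mdx mice at 2 and 5 months of age. Groups used beside the 13 libraries were wt SOL and wt EDL at 5 months, with 4 libraries each, and mdx SOL and mdx EDL at 2 months, with 4 libraries each. The labels give no strain, sex or treatment and do not state whether each library of a group is a different animal. The p-values therefore describe library-to-library spread, part of which may be technical. The mdx mouse carries a mutation in Dmd, the gene of dystrophin, in every cell of the body, so both muscles compared here carry it.

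Dystrophin ties the cytoskeleton of a muscle fibre to the surrounding matrix through a membrane complex, and fibres without it tear, die and are rebuilt by satellite cells while macrophages clear debris and matrix is laid down. The SOL is a postural muscle rich in slow (type I) and fast oxidative (type IIA) fibres, which burn fatty acids in mitochondria and resist fatigue. The EDL lifts the toes and is built almost wholly of fast glycolytic (type IIB and IIX) fibres in the mouse, which rely on glycogen and on rapid calcium release and uptake. Fibre type is set by isoform switches of myosins, troponins, calcium pumps and buffers, which differ between the muscles of healthy mice as well.

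Expression was given as RPKM, the reads of a gene scaled to the length of its transcript and to the mapped reads of the library. The read totals recovered from the steps of low RPKM values lay between 21000000 and 58925000 reads for SOL and between 33075000 and 60350000 reads for EDL. Differences are given as SOL minus EDL on the scale of log2(RPKM + 1) with the standard error of the limma fit, a scale that understates the change of low genes. A gene was called when its Benjamini-Hochberg adjusted p was under 0.05 over the 12541 genes tested. The library numbers fell into blocks that were not balanced between the muscles: 4 SOL libraries were numbered ns49 to ns53 and 3 were ns54 or later, whereas 2 EDL libraries were numbered below ns49 and 4 were ns54 or later. Only ns54 and later holds both muscles, and every comparison was therefore repeated with those 3 SOL and 4 EDL libraries.

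The SOL libraries stood apart by block. Between the SOL libraries ns49 to ns53 and ns54 and later, 5359 genes (42.7% of those tested) were called, 2689 (21.4%) higher and 2670 (21.3%) lower in ns49 to ns53. Between the EDL libraries numbered below ns49 and those from ns54 on, 156 genes (1.24%) were called, 0.311% of those tested higher and 0.933% lower in the earlier libraries. Without ns40, 1 of the 2 earlier libraries, 17 were called, without ns38, the other, 280, without ns63 89 and without ns64 74. The share of higher genes among those called was 25% as deposited, 73.2% after median-of-ratios scaling and 69.1% after quantile normalization. The SOL genes higher in ns49 to ns53 had a median exon length of 2528 bases and the lower ones 6878 bases, and across 12085 genes the block difference in SOL and exon length had a Spearman rho of -0.52. The recovered totals of these 4 SOL libraries, 21000000 to 25375000 reads, lay below the 43575000 to 58925000 reads of the other 3. Pearson correlations of log2 values over the genes tested ran from 0.973 to 0.981 between SOL libraries of different blocks and from 0.993 to 0.995 among the 3 from ns54 on, and no pair of libraries held identical values. What the block number stands for is not given in the sources used here. With a term for the block the muscle comparison called 5874 genes, and without the 4 SOL libraries ns49 to ns53 it called 6051.

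The gene mutated in mdx is given first. Dmd was at 1.54, 1.76, 2.08 and 2.23 RPKM in the SOL libraries ns49 to ns53 and at 2.59, 2.83 and 3.16 RPKM from ns54 on. In EDL it was at 2.14 and 1.98 RPKM in the earlier libraries and at 1.86, 1.86, 2.02 and 2.01 RPKM from ns54 on. Wild-type muscles had 9.27 ± 0.11 RPKM in SOL and 6.94 ± 0.39 RPKM in EDL (SD, n = 4 each), above every mdx library. Within mdx the muscles differed in Dmd by 0.14 ± 0.06 over the 13 libraries (adjusted p = 0.0498, just inside the threshold) and by 0.39 ± 0.06 from ns54 on (adjusted p = 1.1e-07). Utrn, which encodes utrophin, the dystrophin relative that can take its place at the membrane, was at 3.36 ± 0.93 RPKM in SOL (n = 7) and 3.19 ± 0.25 RPKM in EDL (n = 6), a difference of 0.03 ± 0.10 (adjusted p = 0.81). From ns54 on Utrn was higher in SOL by 0.33 ± 0.06 (adjusted p = 2.1e-05), and its 3 SOL libraries, at 4.16 to 4.62 RPKM, lay above the 4 EDL libraries at 2.97 to 3.36 RPKM.

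The muscles differed in a large share of the genes tested. Over the 13 libraries 7419 genes (59.2%) were called, of which 4391 (35.0%) were higher and 3028 (24.1%) lower in SOL, and within ns54 and later 5772 genes (46.0%) were called, 3369 (26.9%) higher and 2403 (19.2%) lower. Of these, 4909 were called in the same direction both ways, 27 in opposite directions, 2483 over the 13 libraries alone and 836 within ns54 alone. The median log2 difference over all genes tested was 0.03 over the 13 libraries and 0.02 from ns54 on. Over the 13 libraries the genes called higher had a median exon length of 3652 bases and those called lower 5150 bases. The Spearman rho of the muscle difference with exon length was -0.22 over the 13 libraries and 0.05 from ns54 on. The share of the 7419 called genes that were higher in SOL was 59.2%, but it was 50.5% after median-of-ratios scaling and 47.7% after quantile normalization, so which side holds the majority depends on the scaling. Differences of 2-fold or more were fewer, 418 genes higher and 248 lower in SOL, and 634 of these 666 were also called in the same direction from ns54 on.

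Slow and fast contractile genes made up the largest differences, and the 250 bases before the transcription start of 4 of them are shown because these genes mark the extremes of the comparison. Myh7 (slow myosin heavy chain) and Tnnc1 (slow troponin C) were among the 12 genes highest in SOL, and Myh4 (type IIB myosin heavy chain) and Pvalb (parvalbumin, a calcium buffer of fast fibres) were the 2 lowest. The sequences are from RefSeq on GRCm38.p6, read 5′ to 3′ on the gene's strand at chr14:54994627-54994876 (minus strand) for Myh7, chr14:31208062-31208311 (plus) for Tnnc1, chr11:67237562-67237811 (plus) for Myh4 and chr15:78206401-78206650 (minus) for Pvalb. Capitals mark CATTCC, the M-CAT element bound by TEAD factors, and TATAAA, a form of the TATA box, on either strand.
Myh7: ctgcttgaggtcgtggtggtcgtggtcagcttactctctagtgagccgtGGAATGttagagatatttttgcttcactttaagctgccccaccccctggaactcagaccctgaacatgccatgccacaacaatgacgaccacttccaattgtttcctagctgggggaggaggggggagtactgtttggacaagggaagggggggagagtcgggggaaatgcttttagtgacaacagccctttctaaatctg
Tnnc1: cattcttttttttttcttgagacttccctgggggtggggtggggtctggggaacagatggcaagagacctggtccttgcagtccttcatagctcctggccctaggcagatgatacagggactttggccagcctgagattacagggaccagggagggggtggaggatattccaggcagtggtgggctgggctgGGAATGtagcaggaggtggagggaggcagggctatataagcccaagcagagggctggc
Myh4: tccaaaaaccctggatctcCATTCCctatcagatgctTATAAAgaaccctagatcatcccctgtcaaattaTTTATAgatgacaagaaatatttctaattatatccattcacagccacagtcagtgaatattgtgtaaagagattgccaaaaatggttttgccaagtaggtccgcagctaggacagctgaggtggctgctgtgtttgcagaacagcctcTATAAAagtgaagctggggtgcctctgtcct
Pvalb: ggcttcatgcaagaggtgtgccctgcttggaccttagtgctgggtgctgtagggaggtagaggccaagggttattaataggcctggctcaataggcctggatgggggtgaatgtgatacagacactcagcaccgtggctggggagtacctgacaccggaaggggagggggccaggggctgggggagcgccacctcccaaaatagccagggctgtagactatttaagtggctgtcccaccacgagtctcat
The M-CAT element lay once in the window of Myh7, 201 bases before the start, once in Tnnc1 at 58 bases and once in Myh4 at 231 bases, and its letters were not in the Pvalb window. The letters TATAAA, on either strand, were found at 213, 179 and 31 bases before the start of Myh4 and in none of the other 3 windows. Other forms of the TATA box, such as the tatataag near the end of the Tnnc1 window, were not searched. Of all 27025 promoter windows of this length, 12.6% held the M-CAT element and 13% the letters TATAAA on either strand. Among slow-fibre genes 13 of 14 matched the promoter table, of which 3 held the M-CAT element and 2 the TATA box, and among fast-fibre genes 12 of 17 matched, of which 5 held the M-CAT element and 3 the TATA box. CANNTG, the E-box bound by MyoD and its relatives, was in the windows of 13 of the 13 slow and 9 of the 12 fast genes, against 66.0% of all windows.

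All 14 slow-fibre genes tested were higher in SOL over the 13 libraries, with a median log2 difference of 5.56, and all 14 were again higher from ns54 on, with a median of 5.76. Among all genes 35.0% were higher, and 26.9% from ns54 on. Myh7 was at 798, 1465, 922 and 2642 RPKM in the SOL libraries ns49 to ns53 and at 2362, 2957 and 2499 RPKM from ns54 on. In EDL it was at 2.88 and 1.22 RPKM in the earlier libraries and at 10.5, 2.78, 3.42 and 3.19 RPKM from ns54 on. The lowest SOL library thus exceeded the highest EDL library, and the difference was 8.64 ± 0.33 (adjusted p = 2.2e-27). Myl3, the ventricular and slow essential light chain, showed the largest difference of all, 9.5 ± 0.23, from 2907 ± 612 RPKM in SOL to 3.26 ± 1.73 RPKM in EDL (adjusted p = 4.8e-35). Its partner Myl2, the regulatory light chain, differed by 8.76 ± 0.27 and was at 2092 to 5693 RPKM in SOL and 3.26 to 12.7 RPKM in EDL.

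The slow troponin complex, which makes the thin filament sensitive to calcium, followed the same pattern. Tnnt1 (slow troponin T) was at 3149 ± 1019 RPKM in SOL and 12.9 ± 6.5 RPKM in EDL, a difference of 7.88 ± 0.19. Tnnc1 was at 1107 to 3504 RPKM in SOL and 3.81 to 12.7 RPKM in EDL, a difference of 7.71 ± 0.21. Tnni1 (slow troponin I) was at 694 to 2419 RPKM in SOL, and in EDL at 8.78 to 19.2 RPKM in 5 libraries and 63.2 RPKM in the sixth, a difference of 6.17 ± 0.29. Tpm3, the slow tropomyosin, differed by 5.58 ± 0.14. Atp2a2, the slow and cardiac calcium pump SERCA2, was at 520, 774, 652 and 1093 RPKM in SOL ns49 to ns53, at 888, 1404 and 1146 RPKM in the later SOL libraries, and at 13.3 to 25.6 RPKM in EDL, a difference of 5.55 ± 0.14. The 8 slow genes named so far were chosen by a rule that required the muscles not to overlap, as 15.1% of all genes tested did not with SOL the higher, and nothing is read from that.

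The other genes among the 12 highest in SOL were Myoz2, a Z-disc protein that binds calcineurin (5.54 ± 0.12), Bdh1, the mitochondrial enzyme that oxidises the ketone body 3-hydroxybutyrate (5.35 ± 0.14), Ankrd2, a stretch-responsive titin-binding protein (5.14 ± 0.29), and Mhrt (5.07 ± 0.14). Bdh1 was at 34.5 to 91.5 RPKM in SOL and 0.259 to 0.659 RPKM in EDL, and its SOL libraries from ns54 on, at 34.5, 46.3 and 38.4 RPKM, were below those of ns49 to ns53, at 55.0 to 91.5 RPKM. Mhrt is a noncoding RNA that overlaps Myh7 on the opposite strand, and the sources used here do not say whether reads were counted by strand. Where the transcripts overlap, reads of Mhrt and Myh7 cannot be told apart.

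Myosin heavy chains of the fast class did not all fall on the EDL side. Of 17 fast-fibre genes tested 16 were lower in SOL and 1, Myh2, was higher, with a median of -1.66 over the 13 libraries and -1.80 from ns54 on, where 15 were lower. Among all genes 24.1% were lower and 35.0% higher, and 19.2% were lower from ns54 on. Myh2, the type IIA heavy chain, was at 1794 ± 344 RPKM in SOL and 75 ± 28.0 RPKM in EDL, a difference of 4.66 ± 0.19 (adjusted p = 4.4e-26). Myh1, the type IIX heavy chain, was at 585 to 1869 RPKM in SOL and 1512 to 2057 RPKM in EDL, so that the muscles overlapped. How reads matching several myosin genes were assigned is not given in the sources used here. The Myh1 difference was -0.64 ± 0.18 over the 13 libraries (adjusted p = 0.0018) and -0.31 ± 0.22 from ns54 on (adjusted p = 0.28). Myh4 was at 18.9, 46.2, 8.47 and 22.0 RPKM in SOL ns49 to ns53 and at 726, 96.5 and 50.7 RPKM from ns54 on, against 8461 and 8315 RPKM in the earlier and 8176, 7471, 6859 and 7762 RPKM in the later EDL libraries. One SOL library, ns58, held 726 RPKM, and the difference of -7.30 ± 0.59 became -7.94 without it. The sums over the list, 21377 to 44011 RPKM in SOL and 75851 to 82028 RPKM in EDL, did not overlap.

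Pvalb was lower in SOL by 6.28 ± 0.30 (adjusted p = 1.3e-23), at 41.6 to 441 RPKM against 7417 to 8185 RPKM in EDL, and library ns58 again held the highest SOL value. Actn3, the fast-fibre alpha-actinin of the Z disc, was at 20.8 to 271 RPKM in SOL and 1865 to 2216 RPKM in EDL, a difference of -5.11 ± 0.37. Mybpc2, the fast myosin-binding protein C, differed by -4.60 ± 0.28. For these 3 genes and Myh4 the block difference within SOL was called as well, with ns49 to ns53 the lower, and the differences from ns54 on were -5.62, -4.12, -3.93 and -5.61. Tnni2 and Tnnt3, the fast troponins I and T, were lower in SOL by 0.43 ± 0.14 and 0.53 ± 0.14, but the libraries overlapped and after quantile normalization the differences were 0.34 and 0.23, higher in SOL. Their SOL values ran from 4367 to 7984 RPKM for Tnni2 in ns49 to ns53 but from 2456 to 3563 RPKM in the later libraries, which lay below all EDL values (5613 to 6417 RPKM), as did 19.7% of all genes tested from ns54 on.

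**Figure D1:**
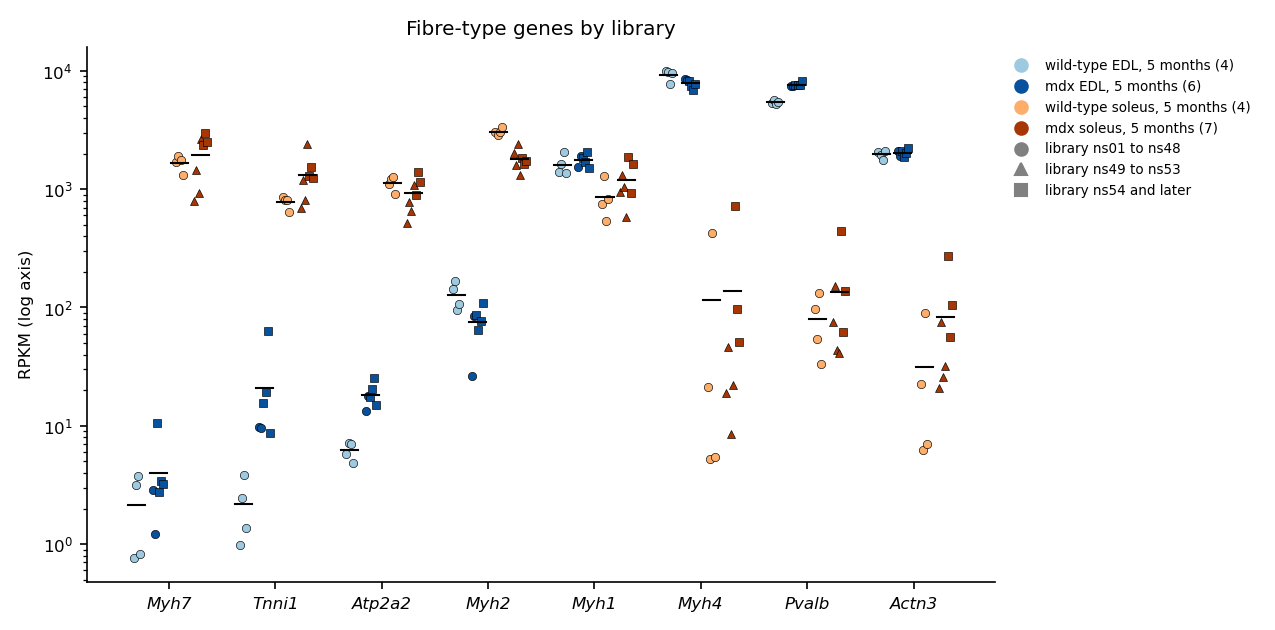
RPKM (log axis) of Myh7, Tnni1, Atp2a2, Myh2, Myh1, Myh4, Pvalb and Actn3 in each library of mdx and wild-type soleus and EDL at 5 months; marker shape gives the block of library numbers and the bar the group mean. Myh7, Tnni1, Atp2a2 and Myh2 separate the muscles in both genotypes, Myh1 overlaps in mdx, and 1 mdx soleus library stands above the others in Myh4 (726 RPKM), Pvalb (441 RPKM) and Actn3 (271 RPKM).

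The remaining genes of the 12 named as lowest in SOL encode membrane and signalling proteins. Kcnc4, a voltage-gated potassium channel, was at 0.530 to 2.58 RPKM in SOL and 32.4 to 46.3 RPKM in EDL (-4.22 ± 0.13). Atp1b2, a beta subunit of the sodium pump, was at 8.82 ± 3.90 and 107 ± 8 RPKM (-3.55 ± 0.14). Mss51, a mitochondrial protein of glycolytic muscle, was at 0.705 ± 0.260 and 19.4 ± 5.5 RPKM (-3.55 ± 0.22). Mylk4, a myosin light chain kinase, differed by -3.41 ± 0.17, Lrtm1, a leucine-rich repeat membrane protein, by -3.33 ± 0.10, Tmem233 by -3.26 ± 0.16, Cib2, a calcium- and integrin-binding protein, by -3.20 ± 0.11, and Tspan8, a tetraspanin, by -3.20 ± 0.15. The rule that chose these 8 genes also required no overlap, which held for 10.5% of all genes tested with SOL the lower, and nothing is read from it.

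Fuel use genes differed along the same axis. Of 30 fatty acid uptake and oxidation genes 29 were higher and 1 was lower in SOL, with medians of 1.28 over the 13 libraries and 1.15 from ns54 on. Over the 13 libraries 35.0% of all genes were higher and 24.1% lower. Fabp3, the heart-type fatty acid carrier, was at 1385 ± 364 RPKM in SOL and 147 ± 17 RPKM in EDL (3.19 ± 0.12). Lpl, the lipase that frees fatty acids from lipoproteins, was at 254 to 489 RPKM in SOL and 36.4 to 50.7 RPKM in EDL (3.07 ± 0.10). Plin5, a lipid droplet protein, and Cd36, a fatty acid transporter, differed by 2.60 ± 0.12 and 2.04 ± 0.07. Cpt1b, which admits fatty acids to the mitochondrion, was at 187 and 80.6 RPKM on average (1.21 ± 0.06). The 1 lower gene was Ucp3, an uncoupling protein of muscle mitochondria, at 17.8 ± 6.1 and 36.7 ± 23.5 RPKM, with overlapping libraries (-0.85 ± 0.26, adjusted p = 0.0040).

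Of 30 glycogen and glycolysis genes 19 were lower and 7 higher in SOL, with a median of -0.88, and the same counts were found from ns54 on. Among all genes 24.1% were lower and 35.0% higher, and 19.2% and 26.9% from ns54 on. Gpd1 and Gpd2, the cytosolic and mitochondrial glycerol phosphate dehydrogenases that shuttle electrons, differed by -3.18 ± 0.13 and -2.79 ± 0.08. Phka1, a regulatory subunit of phosphorylase kinase, was at 17.1 ± 3.6 RPKM in SOL and 101 ± 9 RPKM in EDL. Pygm, muscle glycogen phosphorylase, was at 545 to 861 RPKM in SOL and 1963 to 2322 RPKM in EDL (-1.70 ± 0.07). Lactate dehydrogenase subunits went in opposite directions: Ldhb, the heart subunit, was higher in SOL by 4.06 ± 0.11 and Ldha, the muscle subunit, lower by 1.24 ± 0.06. Pdk4, which switches off pyruvate oxidation, was higher in SOL (235 ± 84 against 70.1 ± 41.8 RPKM, 1.89 ± 0.31).

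Respiratory chain genes gave a result whose size depended on the block. Of 79 nuclear respiratory chain and ATP synthase genes 76 were higher in SOL and none was lower over the 13 libraries, with a median of 0.70, whereas from ns54 on 62 were higher and 1 lower, with a median of 0.30. Among all genes 35.0% were higher and 24.1% lower, and 26.9% and 19.2% from ns54 on. The list summed to 39184 to 43769 RPKM in the SOL libraries ns49 to ns53, to 24177 to 25050 RPKM in the later ones and to 18801 to 20228 RPKM in EDL. Within SOL 71 of the 79 were called higher in ns49 to ns53, against 21.4% of all genes. After quantile normalization 47 were higher and 7 lower over the 13 libraries (median 0.17), and 26 were higher and 13 lower from ns54 on (median 0.05). Cox8b, a muscle subunit of cytochrome oxidase, was at 1783 to 2322 RPKM in SOL ns49 to ns53, 738 to 758 RPKM in the later SOL libraries and 467 to 532 RPKM in EDL, so its difference of 1.43 ± 0.17 fell to 0.57 ± 0.09 from ns54 on.

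Among 21 tricarboxylic acid cycle enzymes 18 were higher and 1 lower in SOL over the 13 libraries (median 0.36), and 16 and 2 from ns54 on (median 0.27). Among all genes 35.0% were higher and 24.1% lower, and 26.9% and 19.2% from ns54 on. After quantile normalization 7 were higher and 8 lower over the 13 libraries, with a median of -0.04. Idh2, the mitochondrial NADP-linked isocitrate dehydrogenase, was at 475 to 763 RPKM in SOL and 50.4 to 69.5 RPKM in EDL (3.25 ± 0.09). Sdha, the catalytic subunit of succinate dehydrogenase, was at 325 ± 26 RPKM in SOL and 331 ± 20 RPKM in EDL and passed the test in neither comparison.

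**Figure D2:**
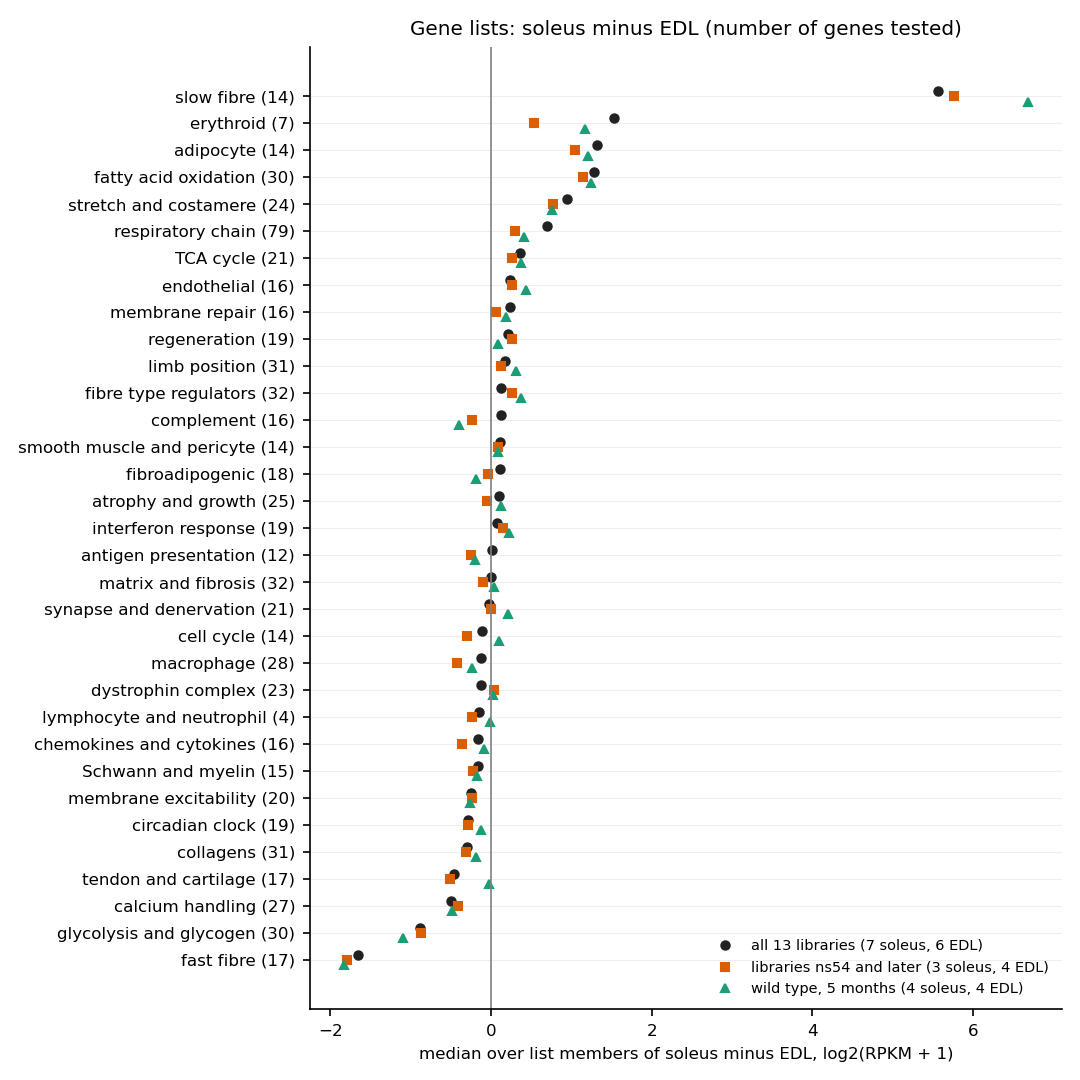
Median log2 difference (SOL minus EDL, log2(RPKM + 1) scale) of each gene list in mdx at 5 months over the 13 libraries, in mdx from ns54 on and in wild type. Slow-fibre genes lie farthest to the positive side (5.56, 5.76 and 6.68), fast-fibre genes lie at -1.66, -1.80 and -1.83, and the respiratory chain median falls from 0.70 to 0.30 within ns54 and later.

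Calcium handling genes were mostly lower in SOL, 15 of 27 with 5 higher (median -0.49), and 16 and 4 from ns54 on. Among all genes 24.1% were lower and 35.0% higher, and 19.2% and 26.9% from ns54 on. The higher ones were the slow or cardiac forms. Sln, sarcolipin, an inhibitor of the calcium pump that stays high in slow muscle, was at 144 to 474 RPKM in SOL and 7.76 to 10.6 RPKM in EDL (4.90 ± 0.17). Casq2, cardiac calsequestrin, was at 111 ± 31 and 19 ± 12.5 RPKM (2.59 ± 0.22), and Pln, phospholamban, at 12.8 ± 5.4 and 1.62 ± 0.30 RPKM (2.31 ± 0.16). Their fast counterparts Atp2a1 (SERCA1) and Casq1 were lower in SOL by 2.19 ± 0.07 and 1.99 ± 0.09, with Atp2a1 at 2104 to 3313 RPKM in SOL and 10994 to 12837 RPKM in EDL. The voltage sensor Cacna1s and the release channel Ryr1 differed less, by -0.93 ± 0.07 and -0.67 ± 0.11.

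Of 20 excitability genes 11 were lower and 7 higher in SOL, against 24.1% and 35.0% of all genes. Clcn1, the chloride channel that steadies the resting potential, was at 21.9 ± 3.7 RPKM in SOL and 49.9 ± 3.8 RPKM in EDL (-1.16 ± 0.08). Kcnj2, an inward rectifier potassium channel, was higher in SOL by 1.40 ± 0.19. Nos1, the neuronal nitric oxide synthase that binds the dystrophin complex, was at 1.95 ± 0.91 RPKM in SOL and 11.8 ± 2.1 RPKM in EDL (-2.16 ± 0.14).

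Regulators of fibre type were called on both sides, 15 higher and 9 lower of 32 tested, against 35.0% and 24.1% of all genes. From ns54 on 18 were higher and 7 lower, against 26.9% and 19.2% of all genes. Maf, a transcription factor of type IIB fibres, was at 9.33 to 15.6 RPKM in SOL and 69.2 to 94.8 RPKM in EDL (-2.59 ± 0.11). Sox6 and Tbx15, which repress slow genes or favour glycolytic fibres, were lower in SOL by 1.18 ± 0.07 and 1.16 ± 0.05, and Myod1, the myogenic factor enriched in fast muscle, by 1.38 ± 0.17. Esrrb and Esrrg, orphan receptors that drive oxidative genes, were higher by 2.30 ± 0.08 and 2.25 ± 0.10, and Esrrb was at 3.86 to 6.93 RPKM in SOL and 0.0851 to 0.227 RPKM in EDL. Rcan1, a target and inhibitor of calcineurin, was higher by 2.65 ± 0.21, Vgll2, a TEAD cofactor, by 1.79 ± 0.14, and Prox1, a homeobox factor of slow fibres, by 1.07 ± 0.11.

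Of 31 limb position genes tested 17 were higher and 8 lower in SOL, against 35.0% and 24.1% of all genes. From ns54 on 14 were higher and 8 lower, against 26.9% and 19.2% of all genes. En1, the homeobox factor of ventral limb, was at 3.09 to 4.41 RPKM in SOL and 0.636 to 1.02 RPKM in EDL (1.39 ± 0.08). Tbx3, a T-box factor of limb patterning, was higher by 1.17 ± 0.10, and Hoxa11, a Hox gene of the zeugopod, was lower by 0.74 ± 0.07, at 0.907 ± 0.184 against 2.18 ± 0.34 RPKM.

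Stretch-responsive and costamere genes were higher in SOL in 15 cases and lower in 4 of 24 tested (median 0.94), against 35.0% and 24.1% of all genes. Csrp3, the muscle LIM protein of the Z disc, was at 239 to 804 RPKM in SOL and 7.01 to 19.6 RPKM in EDL (4.97 ± 0.24). Hspb7, a small heat shock protein that keeps filamin folded, differed by 3.52 ± 0.14, and Flnc, muscle filamin, by 1.23 ± 0.14. Ankrd1, a stress-induced partner of titin, went the other way and was at 12.6 to 23.9 RPKM in SOL and 40.4 to 126 RPKM in EDL (-1.87 ± 0.29, adjusted p = 3.8e-07). Ttn, the giant titin, differed by -0.18 ± 0.08 over the 13 libraries and 0.23 ± 0.06 from ns54 on, past the threshold in opposite directions.

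Regeneration genes, which in mdx muscle mark the rebuilding of fibres, had 5 members called higher and 4 called lower in SOL of 19 tested (median 0.21). Of all genes tested 35.0% were higher and 24.1% lower. The list summed to 1285 to 1832 RPKM in mdx SOL and 605 to 1605 RPKM in mdx EDL. It separated the muscles in wt at 5 months, at 777 to 979 RPKM in SOL and 154 to 217 RPKM in EDL. Myh3, the embryonic myosin heavy chain, was at 12.1, 34.4, 18.7 and 22.7 RPKM in SOL ns49 to ns53 and at 48.1, 41.4 and 51.1 RPKM from ns54 on. In EDL it was at 4.70 and 8.59 RPKM in the earlier and at 5.53, 15.8, 34.1 and 8.66 RPKM in the later libraries. The difference was 1.43 ± 0.36 over all 13 (adjusted p = 7.5e-04) and 1.78 ± 0.46 from ns54 on (adjusted p = 0.0013), and only in the latter did the muscles not overlap. Myh8, the perinatal myosin, differed by 0.47 ± 0.31 (adjusted p = 0.19) and 1.12 ± 0.35 (adjusted p = 0.0084). H19, an imprinted noncoding RNA of growing muscle, was at 965 to 1497 RPKM in SOL and 206 to 633 RPKM in EDL (1.84 ± 0.22). H19 alone made up most of the list sum in both mdx SOL and wt SOL. The sums, and their separation in wt, therefore say little about the other members. Mybph and Actc1, a myosin-binding protein and the cardiac actin of regenerating fibres, were lower in SOL by 1.94 ± 0.39 and 2.06 ± 0.33, and Actc1 was at 25.9 to 58.8 RPKM in SOL ns49 to ns53 and 121 to 199 RPKM in the later SOL libraries. Tmem8c, the fusion protein myomaker, Myog, a differentiation factor, and Pax7, the satellite cell factor, passed the test in none of the 13-library comparisons, with differences of 0.21 ± 0.36, 0.17 ± 0.28 and 0.05 ± 0.08.

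Of 23 genes of the dystrophin complex 5 were higher and 7 lower in SOL over the 13 libraries, and 6 and 5 from ns54 on. Of 16 membrane repair genes 9 were higher and 2 lower over the 13 libraries, against 5 and 1 from ns54 on. The shares of all genes were 35.0% higher and 24.1% lower, and 26.9% and 19.2% from ns54 on.

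Immune cell genes gave few differences between the mdx muscles. None of 28 macrophage genes was called over the 13 libraries (median -0.12), and from ns54 on 3 were lower in SOL and none was higher (median -0.43). Among all genes 35.0% were higher and 24.1% lower, and 26.9% and 19.2% from ns54 on. The macrophage list summed to 503 to 827 RPKM in SOL ns49 to ns53, 288 to 355 RPKM in the later SOL libraries and 239 to 924 RPKM in EDL, against 26.3 to 75.7 RPKM in wt SOL and 50.5 to 115 RPKM in wt EDL. Within SOL 16 of the 28 were higher in ns49 to ns53, against 21.4% of all genes, and without those 4 libraries 8 were lower in SOL than in EDL. Adgre1, the F4/80 antigen, was at 4.99 ± 2.00 and 6.46 ± 3.23 RPKM, with differences of -0.27 ± 0.19 (adjusted p = 0.22) and, from ns54 on, -0.63 ± 0.25 (adjusted p = 0.038). Gpnmb, a marker of lipid-laden macrophages, differed by -0.53 ± 0.29 (adjusted p = 0.12) and -1.13 ± 0.39 (adjusted p = 0.015), and 1 EDL library held 40.0 RPKM against 4.13 to 13 RPKM in the other 5. In bulk muscle fewer cells of a type and less RNA per cell cannot be told apart.

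Of 4 lymphocyte and neutrophil genes none was called. Antigen presentation genes gave 1 higher of 12, interferon response genes 1 higher and 1 lower of 19, complement genes 2 and 1 of 16 and chemokine genes 2 and 1 of 16. These shares lie below the 35.0% and 24.1% of all genes called higher and lower. Cell cycle genes gave 3 higher and 3 lower of 14 over the 13 libraries and 2 and 7 from ns54 on, where 26.9% and 19.2% of all genes were called.

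Collagens and tendon genes were mostly lower in SOL where they were called. Of 31 collagen genes 17 were lower and 1 was higher in SOL (median -0.30), and 12 and 1 from ns54 on (median -0.31). For these and the tendon genes the shares of all genes were 24.1% lower and 35.0% higher, and 19.2% and 26.9% from ns54 on. Col24a1, a minor fibrillar collagen, was at 0.360 to 1.25 RPKM in SOL and 3.45 to 6.03 RPKM in EDL (-1.72 ± 0.09). The 1 higher gene was Col8a1, a short-chain collagen of vessel walls, at 7.63 ± 1.26 and 3.09 ± 0.86 RPKM (1.09 ± 0.13). Tendon and cartilage genes, 10 lower and 1 higher of 17, had a median of -0.47, and the list summed to 163 to 295 RPKM in SOL and 271 to 527 RPKM in EDL. Fmod and Kera, proteoglycans of tendon, were lower by 1.86 ± 0.35 and 1.99 ± 0.23, and Tnc, tenascin C, by 1.13 ± 0.22. Against 35.0% and 24.1% of all genes, other matrix and fibrosis genes had 6 higher and 8 lower of 32. Among them Eln, elastin, was higher in SOL, at 32.0 to 62.1 RPKM in SOL and 8.28 to 16.4 RPKM in EDL (1.85 ± 0.19, adjusted p = 4.4e-12). How much tendon was dissected with each muscle is not given in the sources used here and its part in these differences was not tested.

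Adipocyte genes were higher in SOL in 13 of 14 cases and lower in none (median 1.32), and in 12 from ns54 on (median 1.05). Among all genes 35.0% were higher and 24.1% lower, and 26.9% were higher from ns54 on. The list summed to 2233 to 4143 RPKM in SOL and 538 to 831 RPKM in EDL. In wt at 5 months it summed to 1906 to 2200 RPKM in SOL and 353 to 412 RPKM in EDL, so it separated the muscles there as well. Several members also serve fatty acid uptake within fibres, such as Dgat2, an enzyme of triglyceride synthesis, at 51.4 ± 11.5 and 4.55 ± 1.32 RPKM (3.25 ± 0.12). The secreted fat cell markers Adipoq (adiponectin) and Cfd (adipsin) were at 10.5 ± 2.1 and 92.9 ± 23.8 RPKM in SOL and at 3.10 ± 2.88 and 21.4 ± 17.5 RPKM in EDL, with differences of 1.72 ± 0.36 and 2.31 ± 0.44. Both overlapped through the EDL library ns64, which held 8.58 RPKM of Adipoq and 55.5 RPKM of Cfd. Adipoq and Cfd made up a small part of the list sums, and which cells the rest came from was not tested.

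Endothelial genes were higher in SOL in 8 and lower in 1 of 16 cases, and 10 and none from ns54 on. For this list and those that follow, the shares of all genes were 35.0% higher and 24.1% lower, and 26.9% and 19.2% from ns54 on. Rgcc was at 40.9 to 68.3 RPKM in SOL and 12 to 23.8 RPKM in EDL (1.44 ± 0.16), and Kdr, the VEGF receptor, differed by 0.55 ± 0.15. Of 14 smooth muscle and pericyte genes 4 were higher and 2 lower. The 15 Schwann and myelin genes had 1 called each way over the 13 libraries and 6 lower from ns54 on. Among 18 fibroadipogenic genes 6 were higher and 7 lower over the 13 libraries, but 1 and 4 from ns54 on. The 7 erythroid genes mark blood left in the muscle. All 7 were higher in SOL in wt at 5 months (median 1.17) and in mdx at 2 months (median 1.43). Both of those comparisons used only libraries numbered below ns49. In mdx at 5 months all 7 were higher in SOL over the 13 libraries (median 1.53). None was called from ns54 on (median 0.53). Their sums were 1738 to 2357 RPKM in SOL ns49 to ns53, 549 to 598 RPKM in the later SOL libraries and 271 to 563 RPKM in EDL. Hbb-bs, a beta-globin with near-identical neighbours among which reads may be split, was at 385 to 519, 105 to 114 and 51.8 to 106 RPKM in these groups.

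**Figure D3:**
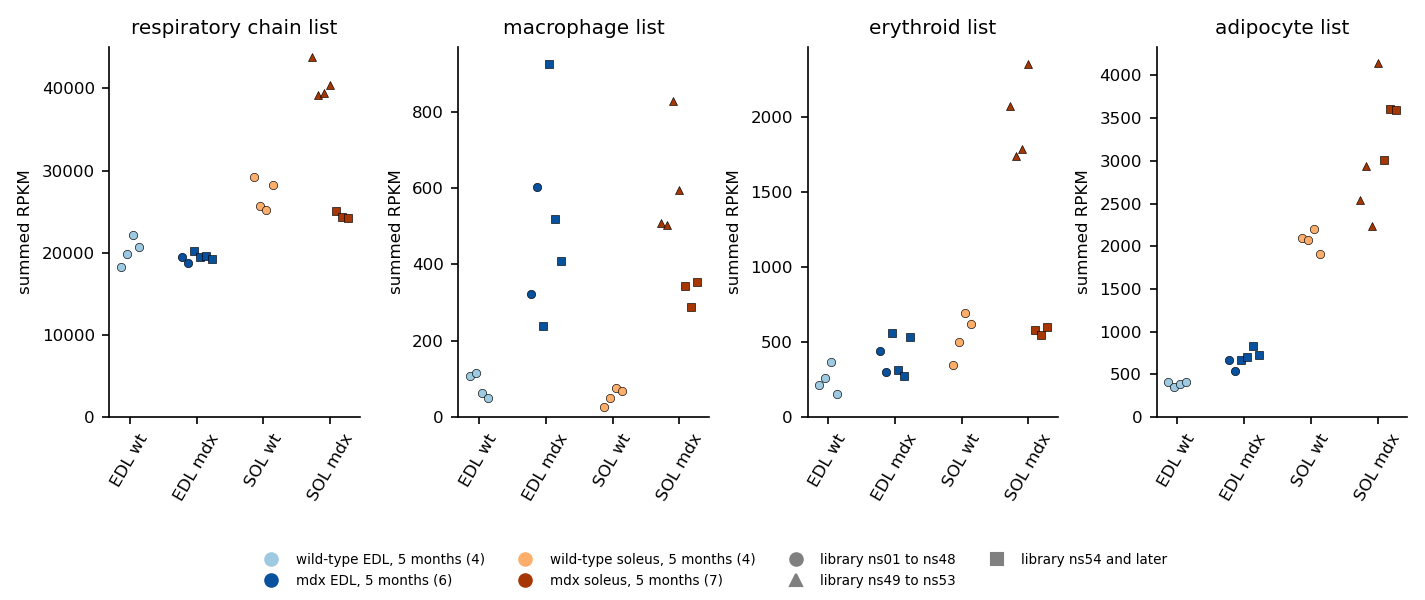
Summed RPKM of the respiratory chain, macrophage, erythroid and adipocyte lists in each library of mdx and wild-type soleus and EDL at 5 months; marker shape gives the block of library numbers. The soleus libraries ns49 to ns53 stand above the later soleus libraries in the respiratory chain (from 39184 against at most 25050 RPKM) and erythroid sums (from 1738 against at most 598 RPKM). Adipocyte list sums are higher in every mdx soleus library (from 2233 RPKM) than in any mdx EDL library (at most 831 RPKM). The same holds in wild type (from 1906 against at most 412 RPKM).

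Of 21 synapse and denervation genes 5 were higher and 7 lower in SOL over the 13 libraries, and 7 and 6 from ns54 on. The shares of all genes were 35.0% higher and 24.1% lower, and 26.9% and 19.2% from ns54 on. Ache, the acetylcholinesterase of the junction, was at 5.80 to 10.6 RPKM in SOL and 31.8 to 42.0 RPKM in EDL (-1.97 ± 0.10), while Colq, the tail that anchors it, was higher by 1.22 ± 0.08. The receptor subunits Chrne and Chrnb1 were lower in SOL by 1.26 ± 0.07 and 1.11 ± 0.08, and Chrna1 was higher by 0.46 ± 0.10. Musk, the receptor kinase that builds the junction, was at 3.67 ± 0.86 and 1.98 ± 0.58 RPKM (0.65 ± 0.10).

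Of 25 atrophy and growth genes 7 were higher and 8 lower in SOL, and 8 and 6 from ns54 on. The shares of all genes were 35.0% higher and 24.1% lower, and 26.9% and 19.2% from ns54 on. Mstn, myostatin, the secreted brake on muscle growth, was at 0.133 to 1.17 RPKM in SOL and 3.65 to 4.95 RPKM in EDL (-1.81 ± 0.11), and its antagonist Fst, follistatin, was at 8.65 ± 2.19 and 3.09 ± 0.66 RPKM (1.23 ± 0.15). Smox, spermine oxidase, differed by -2.60 ± 0.11 and Amd1, an enzyme of polyamine synthesis, by -1.17 ± 0.12. Bnip3, a mitophagy receptor, was higher by 1.51 ± 0.06, and Gadd45a and Igfbp5, both raised in denervated or regenerating muscle, were lower by 1.29 ± 0.19 and 1.22 ± 0.15. Of 19 clock genes 4 were higher and 7 lower over the 13 libraries, and 2 and 4 from ns54 on. The same shares of all genes stand beside these counts.

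The same comparison in wild type gave the frame for these values. In wt at 5 months 6823 genes (54.4%) were called, 4603 (36.7%) higher and 2220 (17.7%) lower in SOL. Of the 7419 genes called in mdx, 5026 were called in the same direction in wt, 129 in the opposite direction and 2264 not called, and of the 666 with a difference of 2-fold or more 628 were called in the same direction in wt. The test of the difference between genotypes, mdx minus wt of SOL minus EDL, called 2385 genes (19%), 788 (6.28%) higher, that is shifted towards SOL in mdx, and 1597 (12.7%) lower, with a median over all genes of -0.05. With the mdx libraries from ns54 on it called 1719 (13.7%), and 1065 genes were called with the same sign both ways, 303 higher and 762 lower. The share of higher genes among those called was 33.0% as deposited, 61.3% after median-of-ratios scaling and 47.4% after quantile normalization. All wt libraries are numbered below ns49 and no mdx SOL library at 5 months is, so genotype and block cannot be told apart for SOL here. Of the 2385 genes 1224 also differed between the blocks of mdx SOL. The genes called higher had a median exon length of 2788 bases and those called lower 5945 bases.

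**Figure D4:**
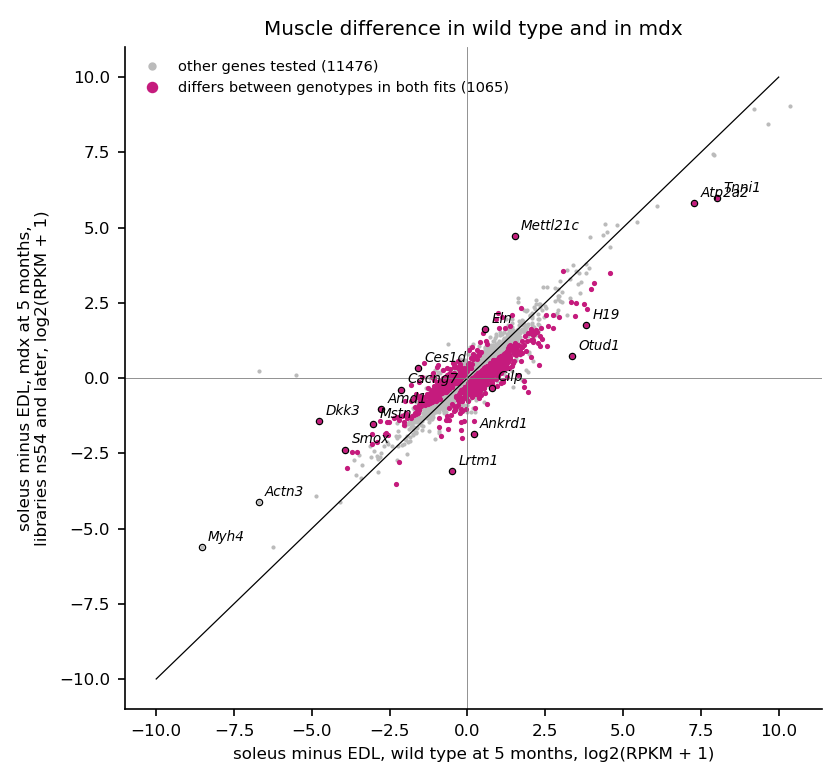
SOL minus EDL log2 difference in wild type at 5 months (x axis) against that in mdx libraries ns54 and later (y axis) for the 12541 genes tested; pink points are the 1065 genes called in the test between genotypes with and without the restriction to ns54, with the same sign. Most genes lie along the diagonal, while Dkk3 and Mettl21c lie above it and Lrtm1, H19 and Ankrd1 below.

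Slow-fibre genes kept their direction in wt, where all 14 were higher (median 6.68), against 36.7% of all genes. In the test between genotypes 3 of the 14, Tnni1, Atp2a2 and Casq2, had a smaller difference in mdx and none a larger one. Of all genes tested 12.7% were called lower and 6.28% higher in that test. Tnni1 differed by 6.17 ± 0.29 in mdx and 8.03 ± 0.36 in wt (test between genotypes -1.86 ± 0.46, adjusted p = 0.0035), and Atp2a2 by 5.55 ± 0.14 and 7.28 ± 0.18 (-1.73 ± 0.23, adjusted p = 3.7e-07). The EDL values moved most: Tnni1 was at 21 ± 21.1 RPKM in mdx EDL against 2.16 ± 1.27 RPKM in wt EDL, and Atp2a2 at 18.2 ± 4.3 against 6.21 ± 1.08 RPKM. For Atp2a2 no mdx EDL library (13.3 to 25.6 RPKM) overlapped the wt EDL libraries (4.89 to 7.12 RPKM). From ns54 on the test gave -2.05 ± 0.51 for Tnni1 and -1.48 ± 0.23 for Atp2a2, both past the threshold, while Casq2 did not pass (-0.80 ± 0.37) and Myl3 did (-1.33 ± 0.41). Of 17 fast-fibre genes 1, Atp2a1, was lower in this test (-0.36 ± 0.12). With the mdx libraries from ns54 on 3 were higher and 1 lower, against 3.76% and 9.95% of all genes. The 3 included Myh4 (2.93 ± 0.98, adjusted p = 0.037) and Actn3 (2.59 ± 0.61, adjusted p = 0.0028), for which the library ns58 set the highest SOL value.

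Dkk3, Mettl21c and Lrtm1 were among the genes named for the largest differences between genotypes over all libraries. Dkk3, a secreted Wnt modulator (chr7:112116017-112159057), was at 27.2 to 47.5 RPKM in wt EDL and 3.82 to 6.38 RPKM in mdx EDL, but at 0.241 to 0.750 RPKM in wt SOL and 0.659 to 1.72 RPKM in mdx SOL. Its SOL minus EDL difference was thus -4.76 ± 0.18 in wt and -1.5 ± 0.14 in mdx, and the test between genotypes gave 3.26 ± 0.23 (adjusted p = 1.5e-14). Mettl21c, a muscle lysine methyltransferase (chr1:44009408-44020034), moved apart instead: it was at 71.8 to 116 RPKM in mdx SOL and 24.0 to 41.3 RPKM in wt SOL, and at 1.82 to 3.97 RPKM in mdx EDL and 7.80 to 13.9 RPKM in wt EDL. Its difference was 4.56 ± 0.19 in mdx and 1.51 ± 0.25 in wt (3.04 ± 0.31, adjusted p = 9.0e-10). Lrtm1 (chr14:29018208-29033645) was at 9.92 to 11.2 RPKM in wt SOL but 0.696 to 1.52 RPKM in mdx SOL, with 11.5 to 17.5 RPKM in wt EDL and 16.8 to 25.3 RPKM in mdx EDL, a test value of -2.85 ± 0.16 (adjusted p = 5.4e-18). These 3 kept their call from ns54 on, at 3.31 ± 0.24, 3.21 ± 0.36 and -2.61 ± 0.17.

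Ankrd1 did not differ past the threshold between wt SOL and wt EDL (5.89 ± 1.03 and 5.09 ± 1.71 RPKM), and was at 17.7 ± 4.1 RPKM in mdx SOL and 72.0 ± 33.3 RPKM in mdx EDL (test -2.08 ± 0.48, adjusted p = 0.0016). H19 was at 752 ± 97 and 53.5 ± 14.9 RPKM in wt SOL and EDL and at 1195 ± 176 and 356 ± 158 RPKM in mdx (-1.98 ± 0.35, adjusted p = 7.4e-05). Ces1d, a carboxylesterase, was higher in EDL than SOL in wt (6.39 ± 0.85 against 1.49 ± 0.44 RPKM) and at 1.48 ± 0.79 and 2.40 ± 0.52 RPKM in mdx EDL and SOL (2.07 ± 0.27). Cacng7, a calcium channel gamma subunit, was at 11.9 ± 1.6 RPKM in wt EDL and 3.73 ± 0.56 RPKM in mdx EDL (1.65 ± 0.16). Otud1, a deubiquitinase, was at 4.10 ± 0.86 RPKM in wt EDL and 16.9 ± 7.1 RPKM in mdx EDL, with 52.7 ± 16.1 and 51.2 ± 25.6 RPKM in SOL (-1.94 ± 0.56, adjusted p = 0.012). Snhg9, a noncoding RNA, and Apoo-ps, a pseudogene, also passed, but from ns54 on their values were 0.01 and 0.17, and neither passed there.

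The growth-related genes Mstn, Smox and Amd1 showed a smaller muscle difference in mdx than in wt. Mstn was at 12.1 ± 1.5 RPKM in wt EDL and 4.19 ± 0.49 RPKM in mdx EDL, with 0.612 ± 0.267 and 0.498 ± 0.339 RPKM in SOL, a test value of 1.22 ± 0.19 (adjusted p = 5.3e-06). Smox was at 102 ± 17 and 43.4 ± 6.3 RPKM in wt and mdx EDL and at 5.76 ± 1.14 and 6.45 ± 1.88 RPKM in wt and mdx SOL (1.32 ± 0.18), and Amd1 was at 92.6 ± 14.2 and 20.3 ± 2.4 RPKM in wt and mdx EDL (1.60 ± 0.19). All 3 passed from ns54 on, with 1.49, 1.54 and 1.73. Of the 25 atrophy and growth genes 4 were higher and none lower in this test, against 6.28% and 12.7% of all genes. With the mdx libraries from ns54 on 3 were higher and 1 lower, against 3.76% and 9.95% of all genes.

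In the test between genotypes 7 of 21 synapse genes had a lower SOL minus EDL difference in mdx than in wt and none a higher one, and 5 and none from ns54 on, against 12.7% and 9.95% of all genes called lower. Ankrd1 is 1 of the 7 over all libraries. Chrna1 was at 12.1 ± 0.9 and 4.54 ± 0.62 RPKM in wt SOL and EDL and at 13.5 ± 0.9 and 9.70 ± 1.91 RPKM in mdx (-0.78 ± 0.16, adjusted p = 5.7e-04). Chrnb1 was at 9.99 ± 0.64 and 13.5 ± 2.1 RPKM in wt and at 18.4 ± 2.9 and 40.7 ± 4.0 RPKM in mdx (-0.71 ± 0.13). Musk was at 7.39 ± 0.61 RPKM in wt SOL and 3.67 ± 0.86 RPKM in mdx SOL (-0.78 ± 0.16), but from ns54 on its value of -0.37 ± 0.15 did not pass (adjusted p = 0.090).

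Collagens had 7 lower and 1 higher of 31 in this test, and 4 and 1 from ns54 on, where the shares lie near the 9.95% and 3.76% of all genes called lower and higher, and tendon and cartilage genes 4 lower and 1 higher of 17 (median -0.81), and 3 and 1 from ns54 on. Cilp, a cartilage matrix protein, was at 8.15 ± 4.79 and 3.89 ± 1.27 RPKM in wt SOL and EDL and at 35.4 ± 6.4 and 45.8 ± 5.0 RPKM in mdx (-1.15 ± 0.32, adjusted p = 0.0088). Eln was at 9.90 ± 1.26 and 6.33 ± 0.65 RPKM in wt and at 45.4 ± 12.3 and 11.8 ± 3.0 RPKM in mdx (1.28 ± 0.30, adjusted p = 0.0020). Fibroadipogenic genes had 4 higher of 18 and none lower, against 6.28% and 12.7% of all genes, and 2 and none from ns54 on, among them Gsn, gelsolin (0.99 ± 0.21), and the complement gene C7 was higher by 1.61 ± 0.34, at 4.89 ± 2.19 RPKM in wt SOL and 15.5 ± 4.7 RPKM in mdx SOL with 14.8 ± 4.9 and 13.9 ± 3.7 RPKM in EDL. No macrophage gene passed this test. En1 had a smaller difference in mdx (-0.63 ± 0.13, adjusted p = 4.2e-04), with 0.110 ± 0.024 RPKM in wt EDL and 0.830 ± 0.140 RPKM in mdx EDL. Respiratory chain genes had 12 higher and 1 lower of 79 over all libraries but none higher and 17 lower from ns54 on. For these and the tendon and cartilage genes the shares of all genes were 6.28% higher and 12.7% lower, and 3.76% and 9.95% from ns54 on.

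**Figure D5:**
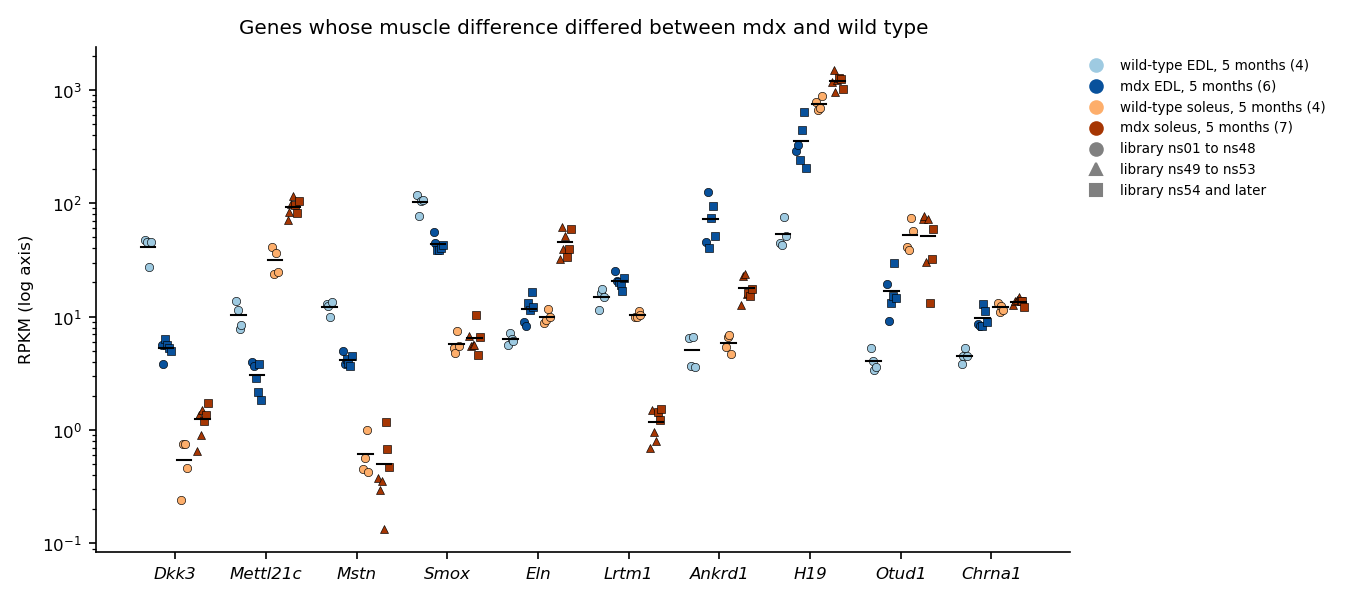
RPKM (log axis) of 10 genes whose muscle difference was called between genotypes, in each library of mdx and wild-type soleus and EDL at 5 months; marker shape gives the block of library numbers and the bar the group mean. Dkk3, Mstn and Smox are highest in wild-type EDL, Lrtm1 is lowest in mdx soleus, and Ankrd1 is highest in mdx EDL.

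At 2 months the mdx muscles had 5703 genes (45.5%) called between SOL and EDL, 25.3% of those tested higher and 20.2% lower in SOL. The test of 5 against 2 months called 448 genes (3.57%), 294 (2.34%) higher and 154 (1.23%) lower, and 216 (1.72%) with the 5-month libraries from ns54 on, 0.989% higher and 0.734% lower, of which 88 were shared with the same sign. The 2-month libraries are numbered below ns49, so age and block cannot be told apart for SOL, and 261 of the 448 also differed between the blocks of mdx SOL. The share of higher genes among those called was 65.6% as deposited, 59.2% after median-of-ratios scaling and 36.9% after quantile normalization. Genes called higher had a median exon length of 2672 bases and those called lower 5312.5 bases, and the Spearman rho with exon length was -0.36. The count rested on single libraries: it was 187, 217 and 223 without the 2-month SOL libraries ns17, ns18 and ns19, 222 and 291 without the 2-month EDL libraries ns35 and ns36, 277 and 224 without the 5-month SOL libraries ns52 and ns53, and 1161, 932 and 1201 without ns58, ns59 and ns60. All these tests share the mdx libraries at 5 months, so they are not independent of the comparison between the muscles.

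Slow-fibre genes had 4 of 14 with a larger muscle difference at 5 than at 2 months and none with a smaller one, and again 4 and none from ns54 on. In this test 2.34% of all genes were called higher and 1.23% lower, and 0.989% and 0.734% from ns54 on. Tnnc1 was at 23.2 ± 6.9 RPKM in EDL at 2 months (n = 4) and 7.89 ± 3.43 RPKM at 5 months (n = 6), with 1371 ± 233 and 1860 ± 801 RPKM in SOL (1.85 ± 0.34, adjusted p = 0.0010). Tnnt1 was at 30.4 ± 7.5 and 12.9 ± 6.5 RPKM in EDL (1.70 ± 0.31, adjusted p = 0.0010), Tpm3 at 28.7 ± 4.2 and 19 ± 3.5 RPKM (1.01 ± 0.22) and Atp2a2 at 28.6 ± 6.6 and 18.2 ± 4.3 RPKM (0.85 ± 0.23). Pln was at 4.70 ± 1.06 RPKM in SOL at 2 months and 12.8 ± 5.4 RPKM at 5 months (1.36 ± 0.25, adjusted p = 0.0011). Fst had a difference of 0.24 ± 0.19 at 2 months and 1.23 ± 0.15 at 5 months (0.98 ± 0.24, adjusted p = 0.017), and Gadd45a one of -2.56 ± 0.24 and -1.29 ± 0.19 (1.27 ± 0.30, adjusted p = 0.015). From ns54 on Fst passed (1.28 ± 0.27) and Gadd45a did not (1.25 ± 0.35, adjusted p = 0.054).

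Lower values at 5 months were fewer. Zfp488, a zinc finger factor, was at 17.0 ± 0.7 and 8.81 ± 0.78 RPKM in SOL and EDL at 2 months and at 8.21 ± 1.12 and 9.44 ± 0.23 RPKM at 5 months (-1.07 ± 0.10, adjusted p = 2.2e-09). Its 5-month SOL libraries lay at 7.11 to 8.20 RPKM in ns49 to ns53 and 8.53 to 9.81 RPKM from ns54 on, all below the 13.8 to 14.9 RPKM of wt SOL. Fzd7, a Wnt receptor, changed from 0.37 ± 0.15 to -0.45 ± 0.12 (-0.82 ± 0.20, adjusted p = 0.015). Snai3 was at 1.75 ± 0.47 RPKM in EDL at 2 months and 3.98 ± 0.59 RPKM at 5 months (-0.99 ± 0.29, adjusted p = 0.044), and its value from ns54 on, -0.91 ± 0.34, did not pass (adjusted p = 0.17). Zbtb20 passed over all libraries (-1.45 ± 0.41, adjusted p = 0.039) with 2.30 to 4.82 RPKM in SOL ns49 to ns53 against 20.5 to 23.2 RPKM in the later SOL libraries, and its value from ns54 on was -0.20. BC002163 was at 148 to 184 RPKM in SOL ns49 to ns53 against 44.2 to 49.8 RPKM from ns54 on, and its value of 1.29 ± 0.34 became 0.33 ± 0.14 there (adjusted p = 0.24). Nlrc3 gave -0.84 ± 0.23 and, from ns54 on, -0.37 ± 0.20 (adjusted p = 0.41). Rpl37rt, a retrotransposed copy of a ribosomal protein gene whose reads may be shared with its parent, passed both ways, with 1.78 ± 0.46 and 0.68 ± 0.16.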

How the data were processed

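Muscle RNA was preserved in an RNase inhibitor, extracted with Trizol and a PureLink kit with DNase, selected for poly(A) and made into libraries with the NuGEN Mondrian SP system, per the labels' protocols. Reads were processed with CASAVA 1.8.2 and TopHat2 2.1.0 on mm10 and quantified in Partek 6.6, per the submitters' processing notes, and the authors deposited 1 table of RPKM per gene, per the file headers. The annotation, strand setting and treatment of multi-mapped reads are not stated in those sources. RPKM divides by total mapped reads and transcript length, so a few very high genes lower all others.

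Values were taken as log2(RPKM + 1). Genes averaging 0.5 RPKM or more across all 55 libraries, 12541 of 24453, were fitted with limma 3.58.1 in R 4.3.3 (lmFit, eBayes with trend), 1 mean per muscle, genotype and age (12 groups), with Benjamini-Hochberg adjustment over all genes tested. The comparisons within ns54 and later used a fit of 15 groups with the mdx groups at 5 months split by block. No library was dropped. A count test was not run, because the values are RPKM. Depth was recovered from the steps of 1248 of 3293 candidate low genes, kept because their values fell near whole reads at the fitted depth. Their values came out whole within 0.1 read for 71.4% to 91.0% of those tested per library. The choice of genes favours this share, so it is no check of the recovered totals. The recovered depth covers counting error only. Depth limits low genes, and no interval was derived from it.

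Named genes were Dmd, Utrn and the adult myosin heavy chains, the 12 largest differences of each sign called both ways with at least 5 RPKM in the higher group and no overlap, the 5 largest of each sign in the other comparisons, and members of each gene list. Predicted genes, clone names and small RNAs were passed over. Some genes are not reported here. The members and the 33 gene lists were chosen with earlier results of these data known. Positions are from GENCODE M21 on mm10 and promoters from RefSeq. Scripts were tested on simulated data. Alternatives changed the pseudocount, the filter, the scaling, the trend, the libraries in the fit and a block term, and left out each library in turn.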

Additional observations from a re-analysis of the deposited data

Results flagged for a closer look

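The values below met a rule for a closer look, and none is explained here. In 13 of 56 groups tested over 28 genes the highest library stood apart from its group by Dixon's criterion, which flags about 1 in 20 groups by chance.

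Library ns58 held the highest SOL value of Myh4 (726 RPKM, next 96.5), Pvalb (441, next 151), Actn3 (271, next 105), Mybpc2 (197, next 90.3) and Tmem233 (18.7, next 8.73). Without ns58 the SOL minus EDL log2 differences over the other 12 libraries were -7.94, -6.65, -5.48, -4.89 and -3.47, and from ns54 on -6.73, -6.37, -4.72, -4.48 and -3.09. SOL library ns53 held the highest Myl2 (5693 RPKM, next 3456), Tnnt1 (5220, next 3379) and Mhrt (72.1, next 39.7). EDL library ns64 held the highest Tnni1 (63.2 RPKM, next 19.2), Mhrt (0.327, next 0.136) and Mss51 (29.5, next 19.3), ns62 the highest Myh7 (10.5, next 3.42) and ns65 the highest Pvalb (8185, next 7567).

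The muscle difference itself differed between mdx and wt in the limma test of that difference for Dkk3 (3.26), Mettl21c (3.04), Ces1d (2.07), Snhg9 (1.86), Cacng7 (1.65), Lrtm1 (-2.85), Apoo-ps (-2.32), Ankrd1 (-2.08), H19 (-1.98) and Otud1 (-1.94). Between 5 and 2 months in mdx it differed for Tnnc1 (1.85), Rpl37rt (1.78), Tnnt1 (1.70), Pln (1.36), BC002163 (1.29), Zbtb20 (-1.45), Zfp488 (-1.07), Snai3 (-0.99), Nlrc3 (-0.84) and Fzd7 (-0.82).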

How the results depend on the processing

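The counts of genes called between the muscles stayed within 1.5 times of their values under every alternative run, from 5871 to 8366 over the 13 libraries and 4828 to 6276 from ns54 on. Other counts moved: the EDL block difference was 307 after quantile normalization, and the 5- against 2-month test was 216 with mdx libraries from ns54 on and 220 without the 4 SOL libraries ns49 to ns53, an alternative chosen after seeing the data. A block term gave 5874 genes. Leaving out each library in turn gave 7164 to 7532 genes over the 13 libraries, 4849 to 5673 from ns54 on, 1840 to 3071 between genotypes, 187 to 1201 between ages, 4587 to 5401 between SOL blocks and 17 (without ns40) to 280 (without ns38) between EDL blocks.

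Signs changed as follows, and the cause was not tested. After quantile normalization the differences over the 13 libraries were -0.071 for B2m, 0.23 for Tnnt3 and 0.34 for Tnni2, and from ns54 on 0.13 for Tnnt3, 0.10 for Tnni2 and -0.30 for Sdha. With a block term they were -0.013 for B2m, -0.15 for Ccl8 and 0.19 for Ttn, and without ns49 to ns53 -0.049, -0.23 and 0.13. The genotype test of Apoo-ps gave 0.17 with mdx libraries from ns54 on and 0.065 without ns49 to ns53. No paired analysis was possible because the table's columns carry library numbers and not the replicate numbers of the sample titles. Values of genes near 1 RPKM rest on few reads in the shallower SOL libraries.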

Other observations

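Several genes differed between the blocks of mdx SOL by more than they did between EDL libraries. Mrgpra6 was at 0 to 0.0107 RPKM in mdx SOL ns49 to ns53 and 61.1 to 65.2 RPKM in mdx SOL from ns54 on, with 57.3 to 68.1 RPKM in mdx EDL, 0.0161 ± 0.0072 RPKM in wt SOL and 45.1 ± 2.1 RPKM in wt EDL (SD, n = 4). Apoo-ps was at 0.00678 to 0.511 RPKM in ns49 to ns53 and 17.3 to 21.5 RPKM in the later SOL libraries, and 22.6 to 35.6 RPKM in mdx EDL. Snhg9 went the other way, at 9.71 to 11.6 RPKM in ns49 to ns53 and at most 0.451 RPKM in the other SOL and EDL mdx libraries. The SOL minus EDL difference of Mrgpra6 was -3.38 ± 0.94 over the 13 libraries and 0.10 ± 0.04 from ns54 on.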
